A study of Rattus norvegicus with 8 samples.

Results

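The genes described here carry adenosine signalling and adenosine clearance in the rat hippocampus: *Adora1* and *Adora2b* (adenosine A1 and A2B receptors), *Nt5e* (CD73, which makes adenosine from AMP outside the cell), *Slc29a1* (ENT1, an equilibrative nucleoside transporter), *Adk* (adenosine kinase) and *Ada* (adenosine deaminase). These 6 genes were taken by NCBI GeneID from the 22601 genes with a value in each library, and their levels are no part of the rule that names them. The data were hippocampal mRNA of 8 wild-type Wistar rats, 180 to 220 g when purchased, with 1 library per rat. There were 3 Con. rats given vehicle (saline and the Q808 solvent), 3 PTZ rats given pentylenetetrazole and vehicle, and 2 Q808 rats given pentylenetetrazole and Q808. Pentylenetetrazole (PTZ) provokes seizures by blocking GABA-A receptors, and in PTZ kindling repeated doses below the seizure threshold make later doses more effective, whereas Q808 is a candidate anticonvulsant that was given by gavage after kindling. Rats of the PTZ and Q808 groups, but not Con. rats, also received a PTZ challenge on the day after the last gavage, before the bilateral hippocampus was taken, so that kindling and a recent injection cannot be told apart in comparisons with Con. Whether these genes differ between vehicle, kindled and treated rats is the question that the design puts to them.

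Adenosine is a depressant of neuronal activity that builds up when ATP is used or released. A1 receptors couple to Gi and Go proteins, open GIRK potassium channels and lower transmitter release at hippocampal synapses, whereas A2 receptors couple to Gs or Golf and raise cAMP. Adenosine is formed outside the cell from ATP by ecto-nucleotidases, crosses the membrane through equilibrative transporters, and is removed inside the cell by adenosine kinase, mostly in astrocytes of the adult brain, or by deamination to inosine.

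All 6 genes had a promoter window in the RefSeq table of the GRCr8 rat assembly. The windows of *Adora1*, *Slc29a1* and *Adk* are printed because the first pair did not overlap in level between the 2 sets of libraries described below, by a narrow gap in *Adora1*, and *Adk* was the steadiest of the 6 genes. Each holds the 250 bases before the annotated start, 5′ to 3′ on the strand of the gene, and capitals mark GGGCGG, the core of a GC box, on either strand.
Adora1: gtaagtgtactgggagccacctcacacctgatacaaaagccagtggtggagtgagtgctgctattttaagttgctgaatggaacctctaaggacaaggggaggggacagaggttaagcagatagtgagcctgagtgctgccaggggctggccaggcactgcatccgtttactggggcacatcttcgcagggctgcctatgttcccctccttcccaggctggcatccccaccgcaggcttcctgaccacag
Slc29a1: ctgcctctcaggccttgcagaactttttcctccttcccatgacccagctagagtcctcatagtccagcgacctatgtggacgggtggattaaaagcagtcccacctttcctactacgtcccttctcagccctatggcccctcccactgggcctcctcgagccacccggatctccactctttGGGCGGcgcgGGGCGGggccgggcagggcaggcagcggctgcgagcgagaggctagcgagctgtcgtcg
Adk: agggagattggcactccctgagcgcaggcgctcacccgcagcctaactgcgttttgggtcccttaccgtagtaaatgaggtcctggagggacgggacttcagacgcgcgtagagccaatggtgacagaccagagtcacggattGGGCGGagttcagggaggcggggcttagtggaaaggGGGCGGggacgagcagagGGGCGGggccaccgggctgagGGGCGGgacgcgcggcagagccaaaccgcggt
The *Adora1* window (chr13:48246832-48247081, minus strand) was 56.8% G and C and held 0 matches to GGGCGG, and it lies inside the span that RefSeq gives the gene. The *Slc29a1* window (chr9:22896849-22897098, plus strand) was 63.6% G and C and held 2 matches. The *Adk* window (chr15:3295746-3295995, minus strand) was 66% G and C and held 4 matches, together with 3 matches to CCAAT, also searched on both strands. Of 33469 promoter windows of this length in the table, 30.5% held GGGCGG and 34.0% held CCAAT.

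The deposited values are FPKM (fragments per kilobase of gene length, scaled by the counted fragments of the library). They were whole multiples of what 1 fragment is worth for all 18431 genes above 0 in any library, within 0.01 fragments, and so gave back the depth of each library, 12158107 to 16905425 counted fragments, as well as the fragments behind each gene. Over the 8 libraries *Adora1* was read from 1163 to 2864 fragments, *Adk* from 881 to 1208, *Nt5e* from 193 to 479, *Slc29a1* from 67 to 302, *Adora2b* from 71 to 153 and *Ada* from only 10 to 29. Counting error alone, given below as exact Poisson intervals, was therefore small for *Adora1* and *Adk* and large for *Ada*. Within groups the variance of the fragments was 102 times the Poisson value for *Adora1*, 60.6 times for *Slc29a1*, 60.1 times for *Nt5e*, 20.2 times for *Adk*, 5.39 times for *Adora2b* and 4.58 times for *Ada*. The comparisons below therefore rest on the spread between rats and not on counting error.

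A set of 3 libraries, 1 of each group, stood apart from the others in regional markers. The mean log2(FPKM + 0.1) of 5 striatum markers (*Drd1*, *Drd2*, *Rgs9*, *Ppp1r1b*, *Pde10a*) was highest in Con.-3 (7.52), followed by Q808-1 (6.27) and PTZ-3 (6.09), against 2.28 to 3.05 in the other 5 libraries. Dentate granule cell markers (*Prox1*, *Dsp*, *C1ql2*, *Pdzd2*, *Stxbp6*, *Plk5*) were at 1.78 to 1.95 in those 3 libraries and 2.72 to 3.27 in the other 5. Of these 6 genes 2, *Pdzd2* and *Plk5*, went the other way, with a higher mean log2 level in the 3 libraries. Hippocampal pyramidal cell markers were at 2.42 to 3.05 and 3.98 to 4.32 on the same scale, with 0 of 6 genes going the other way. The labels give hippocampus for all 8 libraries. Values are therefore also given with the 3 libraries, called the striatum marker-rich libraries below, apart. In these bulk samples fewer cells of a type and less RNA per cell cannot be told apart.

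Across the 8 libraries the median level, which FPKM allows to be compared between genes, was 55.1 FPKM for *Adora1*, 35.9 for *Adk*, 6.24 for *Nt5e*, 4.44 for *Adora2b*, 2.39 for *Slc29a1* and 0.682 for *Ada*. Thus the A1 receptor and the kinase were the abundant members and the deaminase the scarce one. *Adora1* exceeded *Adk* in 7 of 8 libraries with overlapping ranges, and *Adk* exceeded *Nt5e* in 8 of 8 with no overlap, its lowest value being 30.8 FPKM and the highest of *Nt5e* 13.7 FPKM. *Nt5e*, *Adora2b* and *Slc29a1* overlapped each other in range, *Nt5e* being above *Adora2b* in 7 of 8 libraries and *Adora2b* above *Slc29a1* in 6 of 8. *Slc29a1* was above *Ada* in 8 of 8 libraries, although their ranges touched at 1.53 and 1.71 FPKM. The ratio of the highest to the lowest library was 1.43 for *Adk*, 1.83 for *Adora2b*, 1.89 for *Adora1*, 3.09 for *Nt5e*, 3.37 for *Ada* and 4.55 for *Slc29a1*. The SD of log2(FPKM + 0.1) over the libraries placed *Adk* at the 16.1 percentile and *Slc29a1* at the 88.4 percentile of the 15593 tested genes.

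**Figure D1:**
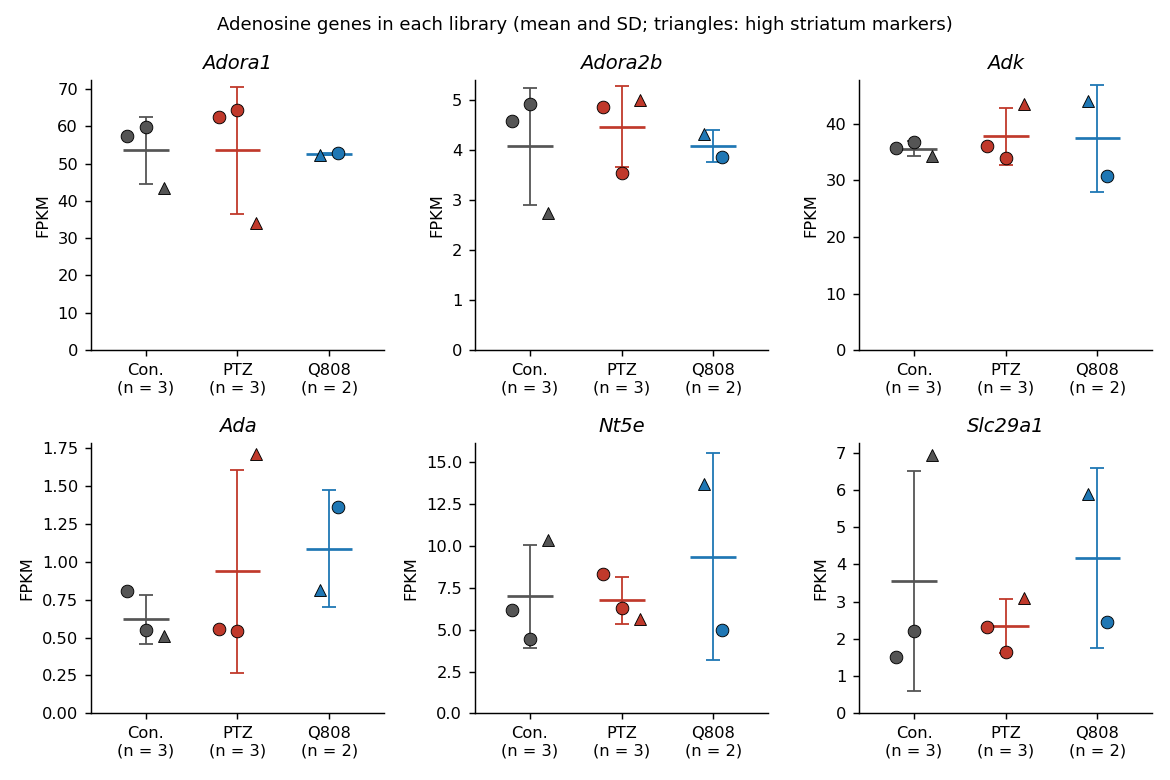
FPKM of the 6 adenosine genes in each library, by group, with the group mean and SD as a line and error bar and the striatum marker-rich libraries as triangles. Group means lie close together for *Adora1* and *Adk*, whereas the 3 triangles are the highest points of *Slc29a1* and the lowest of *Adora1*.

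None of the 6 genes passed the test in any of the 3 comparisons between groups. A gene was called at an unadjusted limma p under 0.05 with more than 1.5-fold change, each comparison being fitted over the 15593 genes with a mean of at least 0.1 FPKM, a level that all 6 passed. In PTZ against Con., 0 of 6 were called, where 2.53% of all tested genes were. In Q808 against PTZ, 0 of 6 were called against 1.92%, and in Q808 against Con. 0 of 6 against 3.46%. Of the 6 genes 0 had an unadjusted limma p under 0.05 in any comparison, where 3.78%, 2.19% and 4.28% of tested genes did, and limma voom on the whole fragments called 0 of 6 as well. After Benjamini-Hochberg adjustment over all tested genes, limma left 0, 0 and 1 genes of the whole table under 0.05 in the 3 comparisons. A list of 6 genes without a call is thus close to the background of these fits. That background depends on the libraries used. Without the 3 striatum marker-rich libraries, limma left 140 genes under an adjusted p of 0.05 in PTZ against Con. It then called 9.81% of tested genes and 0 of the 6. The PTZ libraries enter both of the first comparisons and Con. libraries both comparisons against Con., so these are not independent of each other. Adjusted p-values of the 6 genes were 0.999 in PTZ against Con., 0.952 to 0.989 in Q808 against PTZ and 0.901 to 0.994 in Q808 against Con. (limma). An exact permutation test of a single gene cannot go below 0.1 with 3 against 3 rats or 0.2 with 3 against 2, two-sided, and gave 0.2 to 1 for the 6 genes.

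The A1 receptor did not differ between the groups beyond the spread of the rats. *Adora1* was at 57.4, 59.9 and 43.4 FPKM in Con.-1, Con.-2 and Con.-3, at 62.5, 64.4 and 34.0 FPKM in PTZ-1, PTZ-2 and PTZ-3, and at 52.3 and 52.7 FPKM in Q808-1 and Q808-2. The PTZ group held both the highest and the lowest library, the Q808 libraries lay between them, and all groups overlapped. Between Con. and PTZ 0 of the 6 genes had groups without overlap, where 9.15% of all tested genes did. Mean levels were 53.6 ± 8.93 (SD, n = 3) FPKM in Con., 53.6 ± 17.0 (n = 3) in PTZ and 52.5 ± 0.274 (n = 2) in Q808. The log2 fold change was -0.04 (limma 95% CI -0.68 to 0.60) in PTZ against Con. It was 0.03 (95% CI -0.71 to 0.77) in Q808 against PTZ and -0.01 (95% CI -0.48 to 0.45) in Q808 against Con. These intervals include 1.5-fold changes both ways for the comparisons with PTZ, and the narrower one of Q808 against Con. stays within 0.718-fold to 1.37-fold.

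The A2B receptor, a low-affinity receptor that responds when adenosine is high, was at 4.58, 4.91 and 2.73 FPKM in the Con. libraries, 4.86, 3.54 and 5.001 FPKM in the PTZ libraries and 4.31 and 3.86 FPKM in the Q808 libraries. Con.-3 was the lowest library with 71 fragments, and the groups overlapped in all comparisons. Group means were 4.07 ± 1.17, 4.47 ± 0.809 and 4.09 ± 0.318 FPKM (SD, n = 3, 3 and 2). The log2 fold changes of *Adora2b* were 0.16 (95% CI -0.52 to 0.83) in PTZ against Con., -0.11 (95% CI -0.77 to 0.55) in Q808 against PTZ and 0.05 (95% CI -0.73 to 0.82) in Q808 against Con. Within a library the level of *Adora1* was 6.80 to 18.2 times that of *Adora2b*, with a median of 12.7, and PTZ-3 gave the lowest and PTZ-2 the highest ratio.

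The remaining receptors, which are not among the 6 genes, set the A1 and A2B levels in context. *Adora2a*, the Golf-coupled A2 receptor for which striatal projection neurons are known, was highest in Con.-3 (56.3 FPKM), followed by Q808-1 (28.7 FPKM) and PTZ-3 (26.0 FPKM), and was at 0.610 to 1.62 FPKM in the other 5 libraries. The level of *Adora1* was thus 37.1 to 98.3 times that of *Adora2a* in those 5 libraries and 0.770 to 1.83 times in the 3 striatum marker-rich ones. In PTZ against Con. *Adora2a* differed by -0.79 (95% CI -5.32 to 3.75) on the log2 scale, and by -2.48 to 1.08 over 18 alternatives. Only 1 of these called it, lower, with the replicate number as a block (limma adjusted p = 0.772). That block sets the striatum marker-rich Con.-3 and PTZ-3 against each other, and with it 3.95% of all tested genes were called. *Adora3*, the A3 receptor, was listed at 0 in 6 libraries and was read from 4 fragments in PTZ-3 and 1 fragment in Q808-2.

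CD73, the enzyme of the last step of extracellular adenosine formation, ranged widely inside each group. *Nt5e* was at 6.16, 4.44 and 10.4 FPKM in the Con. libraries, 8.32, 6.31 and 5.62 FPKM in the PTZ libraries and 13.7 and 5.01 FPKM in the Q808 libraries. The Q808 libraries held the highest value and the second lowest, and no pair of groups was separate. Means were 6.99 ± 3.06 FPKM in Con., 6.75 ± 1.40 FPKM in PTZ and 9.37 ± 6.17 FPKM in Q808 (SD, n = 3, 3 and 2). PTZ differed from Con. by 0.02 (95% CI -0.76 to 0.79) on the log2 scale. In Q808 against PTZ the difference was 0.31 (95% CI -0.76 to 1.39). Without Q808-2, which leaves only Q808-1, a striatum marker-rich library, the difference was 1.03, so that 1 library decided this value. In Q808 against Con. it was 0.33 (95% CI -1.01 to 1.68).

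ENT1 carried the largest difference between Q808 and PTZ of the 6 genes, and that difference did not pass the test. *Slc29a1* was at 1.53, 2.21 and 6.94 FPKM in the Con. libraries, 2.32, 1.64 and 3.10 FPKM in the PTZ libraries and 5.89 and 2.46 FPKM in the Q808 libraries. The 3 highest libraries were Con.-3, Q808-1 and PTZ-3, 1 of each group, and the Poisson interval of Con.-3 (6.18 to 7.77 FPKM, 302 fragments) lay above that of Con.-2 (1.82 to 2.65 FPKM, 115 fragments). Means were 3.56 ± 2.95, 2.35 ± 0.728 and 4.18 ± 2.42 FPKM (SD, n = 3, 3 and 2). On the log2 scale PTZ differed from Con. by -0.32 (95% CI -1.63 to 0.98) and Q808 from Con. by 0.39 (95% CI -1.40 to 2.19). In Q808 against PTZ the difference was 0.72, or 1.65-fold (95% CI 0.750-fold to 3.62-fold, limma adjusted p = 0.952, exact permutation test p = 0.4). Without Q808-2, which leaves only the striatum marker-rich Q808-1, the difference was 1.33 on the log2 scale. The ratio of *Nt5e* to *Slc29a1* within a library was 1.49 to 4.04 and was lowest in Con.-3.

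Adenosine kinase was the steadiest of the 6 genes. *Adk* was at 35.7, 36.8 and 34.3 FPKM in the Con. libraries, 36.0, 33.9 and 43.5 FPKM in the PTZ libraries and 44.1 and 30.8 FPKM in the Q808 libraries. The Q808 libraries were the highest and the lowest of all 8, with every Con. library between them. Means were 35.6 ± 1.29, 37.8 ± 5.04 and 37.4 ± 9.44 FPKM (SD, n = 3, 3 and 2). In PTZ against Con. the log2 fold change was 0.08, with a 95% CI of 0.851-fold to 1.31-fold, which does not reach 1.5-fold either way. It was -0.03 (95% CI -0.56 to 0.50) in Q808 against PTZ and 0.05 (95% CI -0.42 to 0.52) in Q808 against Con.

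Adenosine deaminase, which is scarce in brain tissue next to the kinase, gave the largest difference between Q808 and Con. of the 6 genes. *Ada* was at 0.806, 0.551 and 0.508 FPKM in the Con. libraries, 0.559, 0.544 and 1.71 FPKM in the PTZ libraries and 0.813 and 1.36 FPKM in the Q808 libraries. PTZ-3 and Q808-2, at 29 and 28 fragments, were the high libraries, and the others were read from 10 to 16 fragments. The Poisson interval of PTZ-3 was 1.15 to 2.46 FPKM and that of PTZ-2 was 0.281 to 0.950 FPKM, so these libraries of 1 group differed beyond counting error. Both Q808 libraries lay above all Con. libraries, the only pair of groups without overlap among the 6 genes in the 3 comparisons, where 20.0% of all tested genes were separate between Q808 and Con. The gap was between 0.806 FPKM in Con.-1 and 0.813 FPKM in Q808-1, which the counting interval of either (0.460 to 1.31 and 0.445 to 1.36 FPKM) spans. The log2 fold change was 0.70 (95% CI -0.23 to 1.63, limma adjusted p = 0.901, exact permutation test p = 0.2) in Q808 against Con., 0.37 (95% CI -0.76 to 1.49) in PTZ against Con. and 0.33 (95% CI -1.07 to 1.74) in Q808 against PTZ. The level of *Adk* was 22.6 to 67.4 times that of *Ada*, the lowest ratios being 22.6 in Q808-2 and 25.4 in PTZ-3. Choroid plexus markers (*Ttr*, *Kl*, *Folr1*, *Clic6*, *Kcnj13*, with *Otx2* at 0 in all libraries) had their highest mean log2 level in Q808-2, at 4.79 against 0.47 to 3.52 in the others, and meningeal fibroblast markers were at 2.94 there against -0.13 to 2.04. In PTZ-3 these lists were at 1.95 and 1.89, within the range of the other libraries. Their part in the *Ada* values was not tested.

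**Figure D2:**
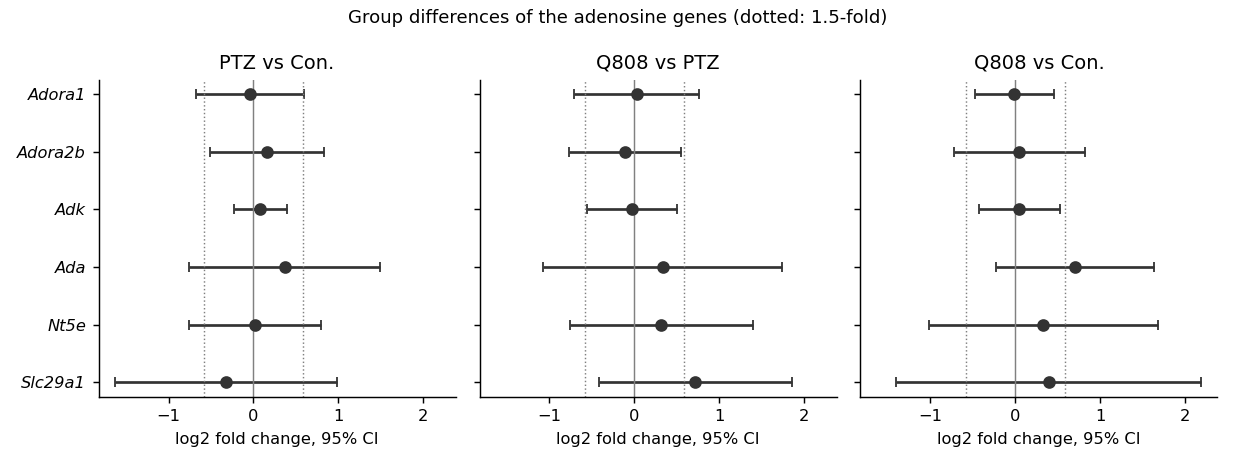
Log2 fold changes of the 6 genes with 95% confidence intervals from limma in the 3 comparisons, with dotted lines at 1.5-fold. All intervals include 0, the narrowest being that of *Adk* in PTZ against Con. and the widest that of *Slc29a1* in Q808 against Con.

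The levels of *Adora1* and *Slc29a1* did not overlap between the striatum marker-rich libraries and the other 5. *Adora1* was at 34.0 to 52.3 FPKM in those 3 libraries and at 52.7 to 64.4 FPKM in the rest, so that the means stood in a ratio of 0.728. The gap lay between Q808-1 and Q808-2, whose counting intervals (50.0 to 54.8 and 50.5 to 55.0 FPKM) overlap. *Slc29a1* was at 3.10 to 6.94 FPKM in the 3 and 1.53 to 2.46 FPKM in the 5, with a ratio of 2.61 between the means. Thus 2 of 6 genes did not overlap between the sets, or 33.3%, which is near the 24.8% of all tested genes that did not. The difference of mean log2 level, the 3 libraries minus the 5, was -0.48 for *Adora1*, 1.29 for *Slc29a1*, 0.64 for *Nt5e*, 0.29 for *Ada*, 0.22 for *Adk* and -0.14 for *Adora2b*. The sets were made from the striatum markers of the same libraries, so these values are a description without a test. Oligodendrocyte markers were also higher in all 3 libraries (8.71 to 9.54 against 7.36 to 8.09 mean log2), as were pericyte markers (2.59 to 3.46 against 2.10 to 2.47), whereas general neuron markers were lower in all 3 (6.85 to 7.46 against 7.73 to 7.97). The part of these cell types, or of the regional differences given above, in the levels of *Adora1* and *Slc29a1* was not tested.

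**Figure D3:**
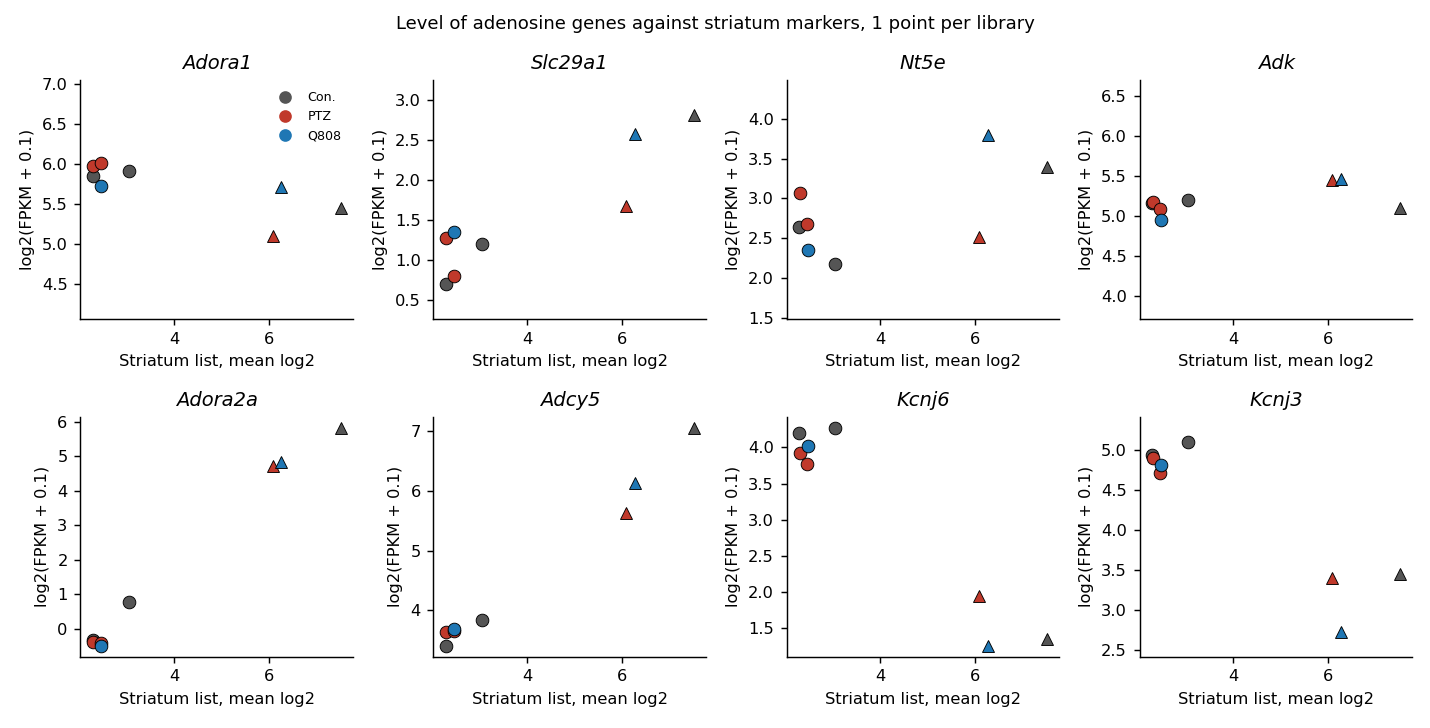
Log2(FPKM + 0.1) of 4 of the 6 genes (*Adora1*, *Slc29a1*, *Nt5e*, *Adk*) and of *Adora2a*, *Adcy5*, *Kcnj6* and *Kcnj3* against the mean log2 level of the striatum markers, 1 point per library, coloured by group, with triangles for the striatum marker-rich libraries. *Adora2a* and *Adcy5* are higher and *Kcnj6* and *Kcnj3* lower in the 3 triangles, *Slc29a1* is higher, *Adora1* lower, and *Adk* nearly level.

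Within the sets, group differences of the 6 genes often had opposite signs. In PTZ against Con. the log2 difference in the 5 other libraries, 2 per group, and in the 3 striatum marker-rich libraries, 1 per group, was 0.11 and -0.35 for *Adora1*, -0.19 and 0.85 for *Adora2b* and 0.46 and -0.87 for *Nt5e*. It was 0.08 and -1.14 for *Slc29a1*, -0.05 and 0.34 for *Adk* and -0.24 and 1.57 for *Ada*, so that the sign differed between the sets in 6 of 6 genes. In Q808 against PTZ, *Slc29a1* was higher in both sets, by 0.32 and 0.91 on the log2 scale, *Adora2b* was lower in both, by -0.10 and -0.21, and the other 4 genes differed in sign. *Ada* was 1.16 and -0.99 in that comparison, each value resting on a single Q808 library. In Q808 against Con., *Ada* was higher in both sets, by 0.93 and 0.59. The set of 3 has no replicates, so the difference between the sets was not tested.

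Of 58 other genes of adenosine production, transport, breakdown and signalling, 51 passed the filter, and 1 was called in each comparison. In PTZ against Con. 1 of 51 was called higher (*Dpp4*) and 0 lower, where 1.69% and 0.840% of all tested genes were. In Q808 against PTZ 0 were higher and 1 lower (*Panx1*), against 1.36% and 0.564%, and in Q808 against Con. 1 was higher (*Slc17a9*) and 0 lower, against 3.07% and 0.391%. These counts are 1.96% of the 51 genes in each case, near the background of 2.53%, 1.92% and 3.46%. The median log2 fold change of the 51 genes was 0.07, 0.10 and 0.12 in the 3 comparisons, and that of all tested genes was -0.04, 0.10 and 0.04.

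**Figure D4:**
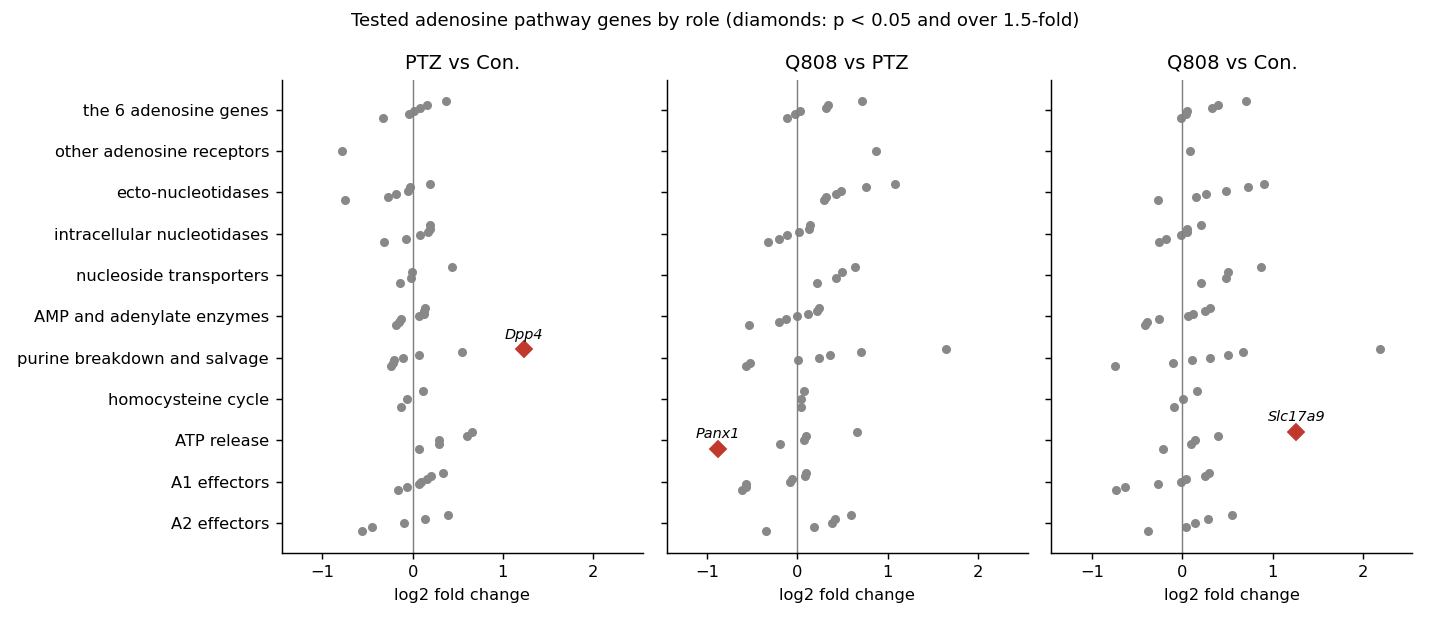
Log2 fold change of each adenosine pathway gene in the 3 comparisons, 1 point per gene in rows by role, with the called genes named. Most points lie within 1 of 0 on the log2 scale, and 1 gene is called per comparison, *Dpp4*, *Panx1* and *Slc17a9*.

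*Panx1*, a membrane channel that releases ATP, was lower in Q808 than in PTZ. It was at 6.63, 7.001 and 13.1 FPKM in the Con. libraries, 13.1, 18.2 and 10.3 FPKM in the PTZ libraries and 8.57 and 6.20 FPKM in the Q808 libraries. The Q808 and PTZ libraries did not overlap, as was the case for 15.6% of all tested genes in this comparison, whereas Con.-3 reached the PTZ values. On the log2 scale the difference was -0.88 (95% CI -1.60 to -0.15, limma adjusted p = 0.952) in Q808 against PTZ and 0.66 (95% CI -0.094 to 1.42) in PTZ against Con. In the 5 libraries outside the striatum marker-rich set, the difference of PTZ from Con. was 1.17 (limma adjusted p = 0.065). Con. was at 6.63 and 7.001 FPKM there and PTZ at 13.1 and 18.2 FPKM. In that fit 9.81% of all tested genes were called and 140 had a limma adjusted p under 0.05. In the set of 3 the difference of PTZ from Con. was -0.34. Q808 minus PTZ was -1.30 in the 5 and -0.26 in the 3. The call in Q808 against PTZ was lost in 3 of 17 alternatives, at -0.90 without PTZ-1, -0.66 without PTZ-2 and -0.65 without Q808-2. *Gja1* (connexin 43, a gap junction protein of astrocytes), the most abundant gene of the ATP release list, was at 128 to 188 FPKM and was not called.

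*Dpp4*, the cell surface peptidase CD26, known as a docking protein for adenosine deaminase in humans, was called higher in PTZ. It was at 0.130, 0.110 and 0.262 FPKM in the Con. libraries, 0.241, 0.521 and 0.982 FPKM in the PTZ libraries and 0.350 and 0.279 FPKM in the Q808 libraries. PTZ and Con. overlapped, and *Dpp4* was read from 9 to 58 fragments. It differed by 1.24 (95% CI 0.040 to 2.43, limma adjusted p = 0.999) on the log2 scale in PTZ against Con., 1.07 in the 5 libraries and 1.58 in the 3. The call was lost in 5 of 17 alternatives, at 0.41 with a pseudocount of 1, 1.15 without Con.-1, 1.08 without Con.-2, 1.23 without PTZ-2 and 0.82 without PTZ-3. *Slc17a9*, the vesicular nucleotide transporter that loads ATP into vesicles, was at 0.133, 0.167 and 0.267 FPKM in the Con. libraries, 0.276, 0.418 and 0.310 FPKM in the PTZ libraries and 0.860 and 0.383 FPKM in the Q808 libraries. Q808 and PTZ libraries all lay above the Con. libraries, where 20.0% and 9.15% of all tested genes did not overlap in these comparisons. The gap of PTZ from Con. was narrow, between 0.267 FPKM in Con.-3 and 0.276 FPKM in PTZ-1, for a gene read from 8 to 45 fragments. The log2 fold change was 1.26 (95% CI 0.10 to 2.42, limma adjusted p = 0.901) in Q808 against Con. The call was lost in 6 of 16 alternatives, at 0.43 with a pseudocount of 1, 0.99 with quantile normalization, 0.95 without the striatum marker-rich libraries, 1.12 without Con.-1, 1.22 without Con.-2 and 0.77 without Q808-1.

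**Figure D5:**
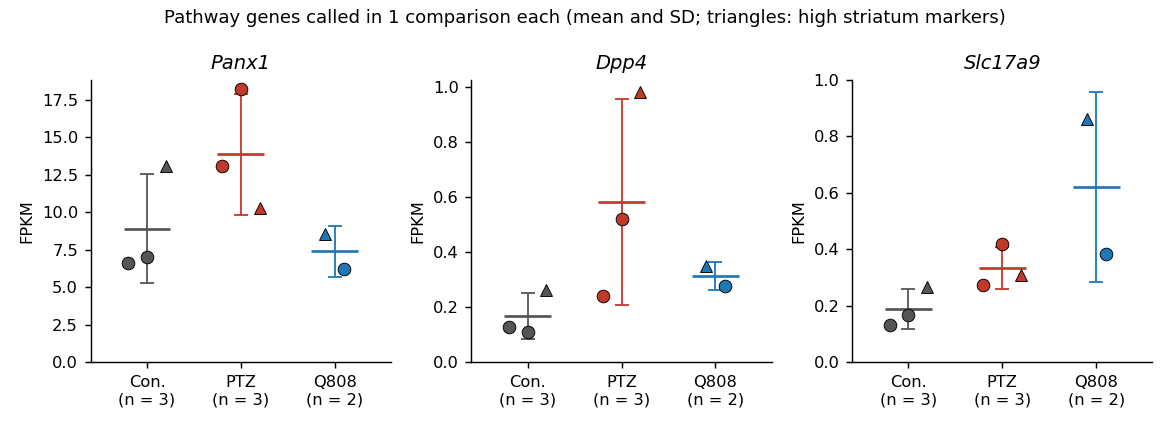
FPKM of *Panx1*, *Dpp4* and *Slc17a9*, the called pathway genes, in each library by group, with the mean and SD and triangles for the striatum marker-rich libraries. The Q808 libraries of *Panx1* lie below all PTZ libraries, and *Dpp4* and *Slc17a9* are below 1 FPKM in all libraries.

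The ecto-nucleotidases upstream of CD73 had 0 of 6 tested genes called in each comparison. *Entpd2*, an ATP-splitting enzyme of the cell surface and the most abundant of the list, was at 10.7 to 15.9 FPKM. *Entpd1* (CD39) had the smallest p in Q808 against PTZ, with a log2 fold change of 1.08 (95% CI -0.11 to 2.28), from 2 to 19 fragments per library. It was called in 6 of 16 alternatives, among them limma voom on fragments (log2 2.02, adjusted p = 0.934), and in 3 of 16 in Q808 against Con. Both Q808 libraries lay above all PTZ and Con. libraries, where 15.6% and 20.0% of all tested genes did not overlap. *Entpd3* was at 7.07 to 18.6 FPKM in the striatum marker-rich libraries and 1.71 to 2.69 FPKM in the others. In PTZ against Con. its log2 fold change was -0.75 (95% CI -2.85 to 1.35), and -1.41 to 0.20 over 18 alternatives. Only 1 of these called it, lower, with the replicate number as a block (limma adjusted p = 0.742).

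Nucleoside transporters other than ENT1 had 0 of 4 tested genes called. *Slc29a3*, a lysosomal transporter, was the most abundant at 5.27 to 17.8 FPKM. Its level did not overlap between the striatum marker-rich libraries (9.52 to 17.8 FPKM) and the others (5.27 to 9.04 FPKM). Its log2 fold change was 0.87 (95% CI -0.20 to 1.94) in Q808 against Con., and 4 of 17 alternatives called it higher. With the striatum list as a covariate it was 0.85 (limma adjusted p = 0.408), where 7.39% of all tested genes were called. *Slc29a4*, a plasma membrane monoamine transporter that also carries adenosine, differed by 0.49 (95% CI -0.17 to 1.16) in Q808 against PTZ. Of the intracellular nucleotidases, which form adenosine or other nucleosides inside the cell, 0 of 6 were called, and *Nt5c3a*, the most abundant, was at 19.3 to 30.3 FPKM. *Nt5c3b* had the smallest p of that list in PTZ against Con., at 0.20 (95% CI -0.23 to 0.62) on the log2 scale. AMP and adenylate enzymes, which set AMP against ADP and IMP, had 0 of 7 called, and the neuronal adenylate kinase *Ak5* was at 32.1 to 102 FPKM, with Con.-3 and Q808-1 lowest. *Ak1*, another adenylate kinase, had the smallest p of that list in both comparisons against Con., at -0.19 (95% CI -0.68 to 0.31) for PTZ and -0.39 (95% CI -0.91 to 0.13) for Q808.

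Of 7 genes listed under purine breakdown and salvage, 1 was called in PTZ against Con., where 2.53% of all tested genes were. It was *Dpp4*, a peptidase and not an enzyme of purine breakdown or salvage. In Q808 against PTZ and Q808 against Con. 0 of 7 were called, against 1.92% and 3.46%. *Pnp*, purine nucleoside phosphorylase, which splits inosine, was at 58.0 to 91.2 FPKM, with a log2 fold change of 0.30 (95% CI -0.12 to 0.73) in Q808 against Con. *Hprt1*, which salvages hypoxanthine, ranged from 0.144 to 7.43 FPKM and was read from only 3 to 113 fragments, with a median of 7.5. Its difference of 1.64 in Q808 against PTZ (95% CI -1.33 to 4.61) was not called. That difference was -0.48 in the 5 libraries and 4.12 in the 3 striatum marker-rich ones. The homocysteine cycle, in which S-adenosylhomocysteine hydrolase yields adenosine, had 0 of 3 called, and *Ahcyl1* was at 85.2 to 109 FPKM. *Ahcy*, the hydrolase itself, differed by 0.07 (95% CI -0.41 to 0.55) in Q808 against PTZ.

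Effectors of the A1 receptor had 0 of 7 and effectors of the A2 receptors 0 of 5 tested genes called in each comparison. Among A1 effectors, *Gnai2*, a Gi alpha subunit, was at 115 to 160 FPKM with a log2 fold change of 0.29 (95% CI -0.12 to 0.70) in Q808 against Con. The GIRK subunits *Kcnj3*, *Kcnj6* and *Kcnj9* were lower in all 3 striatum marker-rich libraries than in the other 5, by -1.70, -2.51 and -1.27 on the log2 scale. The other 4 A1 effectors, all Gi or Go alpha subunits, overlapped between the sets, with differences of -0.10 for *Gnai1*, 0.19 for *Gnai2*, 0.14 for *Gnai3* and 0.28 for *Gnao1*. Of the A2 effectors *Gnal* (Golf, 2.29) and *Adcy5* (2.62) were higher in the 3 libraries, *Gnas* (Gs, -0.75) was lower, and *Adcy6* and *Adcy7* overlapped. *Gnas*, the most abundant A2 effector at 68.7 to 170 FPKM, differed by 0.39 (95% CI -0.40 to 1.18) in PTZ against Con. *Adcy6* differed by 0.38 (95% CI -0.14 to 0.90) in Q808 against PTZ and 0.29 (95% CI -0.12 to 0.70) in Q808 against Con. Of the 51 pathway genes 17, or 33.3%, did not overlap between the sets, 8 higher and 9 lower in the 3 libraries, near the 24.8% of all tested genes.

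Genes with the most similar course over the 8 libraries were sought among 15592 others by the root mean square difference of mean-centred log2(FPKM + 0.1). The nearest were *Nat8l* (0.096) and *Arhgap21* (0.103) for *Adora1*, *Sh3bgr* and *Cox7a2l* (both 0.115) for *Adora2b* and *Rtn2* (0.070) and *Cops6* (0.072) for *Adk*. For the more variable genes they were *Foxc1* (0.156) and *Apol9a* (0.182) for *Ada*, *Themis2* (0.169) and *Ndrg1* (0.182) for *Nt5e* and *Cacng4* (0.141) and *Vit* (0.178) for *Slc29a1*. The smallest distance between 2 of the 6 genes was 0.241, between *Adk* and *Adora2b*.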

How the data were processed

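Hippocampal mRNA of 3 Con., 3 PTZ and 2 Q808 rats was sequenced, 1 library per rat. The authors trimmed reads with Trimmomatic and deposited FPKM per gene, which their methods credit to Cufflinks, with HTSeq for read counts and DESeq for their own comparisons. The labels also name HISAT2, Bowtie2, SAMtools and StringTie without a role, and the genome build was not given in the sources used here. Whole fragments, gene lengths and library totals (12158107 to 16905425) were recovered from the steps of the FPKM values, for 100% of 18431 genes within 0.01 fragments, a gene's fragments being known up to a common factor. Intervals from them cover counting error only. Genes were matched by GeneID, and RefSeq (GRCr8) gave 20633 symbols, used for names, and the promoter sequences.

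The 15593 genes with a mean of at least 0.1 FPKM were tested on log2(FPKM + 0.1) by limma 3.58.1 (empirical Bayes with trend, R 4.3.3), each comparison on its own 2 groups, with Benjamini-Hochberg adjustment over all of them. The pseudocount understates changes of low genes. Called genes had p under 0.05 and more than 1.5-fold change. Group values are mean ± SD. The rest was done in Python 3.11.15 (scipy 1.17.1, numpy 2.4.6, pandas 2.3.3, and matplotlib 3.10.9 for plots), and the procedures were tested on simulated data.

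The 6 genes, the 10 pathway lists (58 genes) and the 11 marker lists (63 genes) were proposed with earlier results of these data known, although no level enters the rule for the 6 genes. From the striatum list 1 further gene was left out of all values afterwards and is not reported here. Genes named were the 6 members, *Adora2a*, *Adora3*, of each list the called genes, the gene with the smallest p in each comparison and the most abundant gene, and the 2 nearest genes by course over libraries. Genes said to differ between the library sets were named after their values were seen.

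Replicate numbers were treated as pairing Con. and PTZ libraries by the rule used, since deviations from group means correlated at 0.309, 0.392 and 0.472 over 12563 genes. These values cannot show a pairing. Con.-3 and PTZ-3 are both striatum marker-rich, and deviations within a group balance each other, so the other libraries share the opposite deviation. The labels do not say what a number shares, and Con.-2 with PTZ-1, of unlike number, gave 0.452. With the replicate block, PTZ against Con. called 616 genes in place of 395, 3 pathway genes in place of 1 (*Dpp4* higher, 1.24 on the log2 scale, and *Adora2a* and *Entpd3* lower, -0.79 and -0.75) and 0 of the 6 genes (limma). The Q808 libraries share only 2 numbers with other groups. Alternatives were other pseudocounts, filters, scalings and fits, the block, the striatum list as a covariate, the 3 libraries or each library left out, no fold threshold and, added after the data were seen, limma voom on fragments. Raw reads and the study's blot, PCR and behavioral data were not analysed here.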

Additional observations from a re-analysis of the deposited data

How the results depend on the processing

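Of 309 values of the 6 genes under alternatives, 264 kept direction and side of the threshold, 41 turned sign and 4 newly passed the call. Those that turned had fold changes of at most 0.39 on the log2 scale as reported, and the causes were not tested. Limma was used throughout.

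With 3 high-striatum libraries left out, PTZ against Con. gave 0.11 for *Adora1*, -0.19 for *Adora2b*, -0.053 for *Adk*, -0.24 for *Ada* and 0.083 for *Slc29a1*. Q808 against PTZ gave -0.27 for *Adora1*, -0.52 for *Nt5e* and 1.16 for *Ada*, and Q808 against Con. -0.29 for *Adora2b*, -0.24 for *Adk* and -0.062 for *Nt5e*. Quantile normalization gave 0.0071 for *Adk* in Q808 against PTZ, and 0.014 for *Adora1* and -0.064 for *Adora2b* in Q808 against Con. Median ratio scaling turned *Adora1* to 0.0068 in PTZ against Con. and to -0.030 in Q808 against PTZ.

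For Q808 the replicate block sets the striatum marker-rich Q808-1 against PTZ-1 and Con.-1, which are not. Libraries of like number correlated at -0.439 and 0.416 with PTZ and at -0.463 and 0.661 with Con. In Q808 against PTZ the block gave -0.27 for *Adora1*, 0.076 for *Adk* and 0.93 for *Slc29a1* (called, limma adjusted p = 0.386). In Q808 against Con. it gave -0.21 for *Adora2b*. The block called 1894 genes, 4 pathway genes and 1 of the 6 genes in Q808 against PTZ, and 1076 genes and 5 pathway genes in Q808 against Con. With the block, PTZ against Con. called 616 genes and 3 pathway genes, and it changed no other call of the 6 genes.

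Leaving out 1 library at a time, PTZ against Con. ranged from -0.20 to 0.26 for *Adora1*, -0.10 to 0.31 for *Adora2b*, -0.026 to 0.15 for *Adk*, -0.13 to 0.62 for *Ada*, -0.26 to 0.34 for *Nt5e* and -0.76 to 0.30 for *Slc29a1*. Q808 against PTZ ranged from -0.27 to 0.19 for *Adora1*, -0.29 to 0.23 for *Adk*, -0.004 to 0.83 for *Ada*, -0.40 to 1.03 for *Nt5e* and 0.11 to 1.33 for *Slc29a1*. Q808 against Con. ranged from -0.16 to 0.074 for *Adora1*, -0.21 to 0.20 for *Adora2b*, -0.21 to 0.31 for *Adk*, -0.39 to 1.05 for *Nt5e* and -0.22 to 1.02 for *Slc29a1*. With 1 Q808 library left, that library is assumed to vary like the other group. Of the 6 genes only *Nt5e* (1.03) and *Slc29a1* (1.33) passed the call, in Q808 against PTZ without Q808-2. These differences rest on Q808-1 alone, with no spread measured in the Q808 group. The counts of called genes ranged from 249 to 1135, 132 to 1569 and 279 to 1799 in the 3 comparisons, and those of pathway genes from 0 to 3, 0 to 5 and 0 to 5.

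Counts of called genes moved by over 1.5 times elsewhere too. A pseudocount of 1 left 219 genes for PTZ and 340 for Q808 when each was set against Con., and 0 pathway genes in both. A mean FPKM of at least 1 left 193 genes in Q808 against PTZ, and 0 pathway genes in both comparisons against Con., and quantile normalization left 0 pathway genes in Q808 against Con. The striatum list as a covariate gave 624, 534 and 1153 genes, and 3 pathway genes in Q808 against Con. Without the 3 libraries 1530 genes and 4 pathway genes were called in PTZ against Con., 1444 genes and 5 pathway genes in Q808 against PTZ, and 1 of the 6 genes, *Ada*, in Q808 against PTZ. In Q808 against PTZ that setting keeps only Q808-2 in the Q808 group, so no spread was measured there. The *Ada* difference of 1.16 on the log2 scale rests on that library, at 28 fragments. No conclusion on *Ada* is drawn from the call. Pathway counts were 2 without a trend in all comparisons, without a filter or with voom on whole fragments in both Q808 comparisons, with all 3 groups in a fit in Q808 against PTZ, and with no fold threshold in Q808 against Con. Depth limits *Ada*, *Dpp4*, *Slc17a9* and *Entpd1*, read from 2 to 58 fragments per library, and *Hprt1*, read from 3 to 113.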
